A study of Mus musculus with 20 samples.

Results

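The interferon-stimulated genes described here are 44 genes that mouse cells are known to switch on after contact with interferon. They were chosen by name, as rows of the LSK and MEP expression tables averaging 1 FPKM or more across a cell type's 10 libraries, out of 24315 genes in each table. FPKM are fragment counts scaled to transcript length and library size, so that levels of different genes can be set side by side. All 44 genes passed in LSK, among 11952 genes in all, and 42 passed in MEP, among 10933. Mx1 and Mx2 lay below the minimum in MEP, at a mean of 0.938 and 0.704 FPKM, and Oas2, Ifi44 and Ifit3 lay just inside it at 1.18, 1.21 and 1.30 FPKM. Of the 42 genes in MEP, 5 reached the minimum only with the Bcor-/-Dnmt3a-/- libraries (Ifit1, Ifit3, Oas2, Ifi44 and Iigp1), and in LSK there were 0 such genes.

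LSK cells (Lin-Sca1+Kit+, the compartment of stem and multipotent progenitor cells) and MEP (the progenitors of megakaryocytes and red cells, gated as Lin-Sca1-Kit+ with CD34- and FcgRII/IIIlo/-) were sorted from bone marrow of C57BL/6 mice. In each cell type there were 3 WT, 3 Dnmt3a-/-, 2 Bcor-/- and 2 Bcor-/-Dnmt3a-/- libraries of polyA RNA, and the LSK and MEP libraries with the same number in a genotype came from the same mouse. The label of Bcor-/- replicate 1 names a pool of 2 mice. Bcor, a subunit of a Polycomb repressor complex, and Dnmt3a, a DNA methyltransferase, were deleted with Mx1-Cre, a recombinase driven by the promoter of the interferon-stimulated gene Mx1 and induced with pIpC, a double-stranded RNA that makes the animal produce interferon. WT controls were mice with untargeted genes, and the study describes the Bcor-/-Dnmt3a-/- genotype as leukemic. It also describes the Dnmt3a deletion as incomplete in Dnmt3a-/- mice and as complete in the leukemic double knockout. The library names of all mutants hold Cre, and those of the controls hold WT in that place. They do not otherwise say whether the WT mice carried Cre or received pIpC. The labels give neither the age of the mice nor the time since pIpC. None of these can be told apart from genotype.

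Type I interferon binds the receptor formed by Ifnar1 and Ifnar2, the kinases Jak1 and Tyk2 pass the signal on, and a complex that includes Stat2 and Irf9 binds the interferon-stimulated response element of target promoters. Interferon gamma acts through its own receptor, formed by Ifngr1 and Ifngr2. The target genes encode sensors of viral RNA, enzymes and membrane proteins that block viral growth, the ubiquitin-like protein Isg15, GTPases that attack pathogen compartments, and parts of the antigen processing machinery. In blood stem cells type I interferon is known for driving quiescent cells into cycle, and pIpC is a standard way to provoke it.

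The promoters of 4 genes that are followed below are shown because they carry the interferon response element in different numbers. They were taken from RefSeq (GRCm38.p6, a build other than that of the expression tables) and run from 250 bases before the annotated gene start to 50 bases after it, 5′ to 3′ on the gene's strand. Capitals mark each match to the element's core, GAAANNGAAA, searched on both strands, where it reads as its reverse complement on the opposite strand. Overlapping matches are merged in the capitals.
Isg15, chr4:156200769-156201068, minus strand: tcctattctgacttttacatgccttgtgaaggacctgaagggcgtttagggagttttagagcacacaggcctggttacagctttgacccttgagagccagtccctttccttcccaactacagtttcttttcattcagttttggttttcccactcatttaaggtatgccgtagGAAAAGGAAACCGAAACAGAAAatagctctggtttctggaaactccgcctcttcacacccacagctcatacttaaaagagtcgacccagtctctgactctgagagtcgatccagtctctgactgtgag
Rsad2, chr12:26456403-26456702, minus strand: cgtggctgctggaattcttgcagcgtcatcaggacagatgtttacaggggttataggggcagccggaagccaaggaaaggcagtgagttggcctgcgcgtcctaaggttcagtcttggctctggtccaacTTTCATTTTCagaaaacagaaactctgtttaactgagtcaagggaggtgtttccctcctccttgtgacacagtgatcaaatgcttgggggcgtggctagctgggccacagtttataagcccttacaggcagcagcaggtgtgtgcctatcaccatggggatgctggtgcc
Ifit1, chr19:34640639-34640938, plus strand: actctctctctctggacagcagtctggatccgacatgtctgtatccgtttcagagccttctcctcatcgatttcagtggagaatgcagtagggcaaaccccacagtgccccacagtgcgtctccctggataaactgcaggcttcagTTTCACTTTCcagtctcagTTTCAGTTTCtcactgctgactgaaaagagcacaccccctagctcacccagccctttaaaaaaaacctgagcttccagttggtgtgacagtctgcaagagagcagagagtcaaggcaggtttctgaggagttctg
Igtp, chr11:58199306-58199605, plus strand: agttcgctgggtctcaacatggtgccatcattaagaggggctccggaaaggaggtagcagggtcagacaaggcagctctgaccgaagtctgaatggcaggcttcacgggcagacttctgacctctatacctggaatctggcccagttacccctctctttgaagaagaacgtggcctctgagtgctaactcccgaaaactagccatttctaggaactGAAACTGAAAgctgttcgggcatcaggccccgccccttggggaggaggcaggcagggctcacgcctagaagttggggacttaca

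The Isg15 promoter holds 3 overlapping matches, from position -78 to position -57 counting the first base at the annotated start as 0. The Ifit1 promoter holds 2 matches, starting at -104 and -85, and the Rsad2 and Igtp promoters hold 1 each, starting at -120 and -34. Of the 44 genes, 34 had a promoter in the table, and 17 of these had a core in at least 1 promoter (50%), against 3.99% of all 27025 genes in the table. The STAT site TTCNNNGAA, which reads the same on both strands, was present in 11 of the 34 (32.4%), against 9.55% of all genes. A core was found for 5 of the 5 GTPase genes in the table (Gbp2, Gbp3, Gbp7, Igtp and Irgm1), while Irf7, Irf9, Isg20, Oasl1, Oasl2 and Samhd1 had no match to the core within the window. The genes Mx1, Mx2, Usp18, Zbp1, Parp9, Parp14, Oas2, Dhx58, Rtp4 and Iigp1 were not matched to the table.

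The sorted populations were checked against marker lists before the results. WT LSK libraries had the stem and progenitor genes at a summed level of 1012 to 1205 FPKM, and WT MEP libraries had the genes of megakaryocyte-erythroid progenitors at 3581 to 4740 FPKM. The Bcor-/-Dnmt3a-/- LSK libraries went against their label, with the stem list at only 131 and 360 FPKM. Cd34 had 5.87 and 37.3 FPKM, against 548 to 650 FPKM in WT. The erythroid list was at 6054 and 23621 FPKM, against 35.9 to 121 FPKM in WT. Bcor-/-Dnmt3a-/- MEP replicate 1 also departed from its label, with the megakaryocyte-erythroid list at 1973 FPKM, below every WT MEP library. In MEP replicate 2 that list was at 4658 FPKM, inside the WT range. Kit, part of the MEP gate, was lower in Bcor-/-Dnmt3a-/- MEP than in WT (log2 fold change -1.51, limma adjusted p = 0.00215). Both Bcor-/-Dnmt3a-/- libraries also differed from each other more than replicates of any other genotype, with a Pearson correlation across genes of 0.849 for LSK and 0.815 for MEP, where no other genotype was under 0.971. In bulk RNA, a different mix of cells in the sort and a change of RNA within the cells cannot be told apart. The RNA of the targeted genes is a limited check of the labels, since only some exons were deleted and the values cover whole genes. The study describes the Bcor RNA left after deletion as very unstable, and reports no detectable Bcor mRNA by PCR in Bcor-/- LSK. Here Bcor had 29.5 to 32.4 FPKM in WT LSK, 22.4 and 23.2 FPKM in Bcor-/- and 24.0 and 37.4 FPKM in Bcor-/-Dnmt3a-/-. The higher double knockout value lay above every WT library and so went against the label. Dnmt3a had 16.1 to 19.8 FPKM in WT LSK, 11.3 to 16.9 FPKM in Dnmt3a-/- and 10.4 and 10.9 FPKM in Bcor-/-Dnmt3a-/-. In MEP the check bore out the labels less. The log2 fold change of Bcor against WT was -0.15 in Bcor-/- and -0.03 in Bcor-/-Dnmt3a-/- MEP. That of Dnmt3a was -0.65 in Dnmt3a-/- MEP and -0.26 in Bcor-/-Dnmt3a-/- MEP (limma adjusted p = 0.528).

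In WT mice the interferon-stimulated genes were higher in LSK than in MEP. The WT mean ran from 1.72 FPKM (Ifit3) to 265 FPKM (Psmb8, an immunoproteasome subunit) in LSK, with a median over the 44 genes of 16.6 FPKM, and from 0.198 FPKM (Oas2) to 101 FPKM (Isg20) in MEP, with a median of 8.44 FPKM. All 3 WT LSK libraries lay above all 3 WT MEP libraries for 41 of 44 genes. Among genes tested in both cell types this was so for 39 of 42, against 41.9% of all 10773 such genes. The reverse held for Isg20, Oasl1 and Cmpk2, or 3 of 42, against 31.2% of all genes. The 2 tables were scaled separately, and these levels are given as a description.

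Bcor-/-Dnmt3a-/- LSK were first compared with WT LSK. A gene was called higher or lower when limma gave an unadjusted p under 0.05 and the fold change exceeded 1.5. By this rule 16 of the 44 interferon-stimulated genes were higher in Bcor-/-Dnmt3a-/- LSK and 1, Oasl2, was lower. Of all genes 15.0% were called higher and 13.3% lower. The median log2 fold change was 0.53 over the 44 genes and 0.02 over all genes. With the Benjamini-Hochberg adjusted p of limma, 12 stayed higher and none lower, against 12.3% and 11.4% of all genes, or 23.7% in either direction. The higher genes belonged to several functional classes, and the antigen processing genes Psmb8, Psmb9 and Tap1 were the class with no call.

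Among the transcription factors, Irf7, the factor that amplifies the interferon response, had 17.6, 18.4 and 17.1 FPKM in WT LSK against 89.2 and 58.3 FPKM in Bcor-/-Dnmt3a-/- LSK. Stat2, a subunit of the complex that binds the response element, had 15.7, 13.4 and 15.1 FPKM in WT and 26.5 and 35.7 FPKM in Bcor-/-Dnmt3a-/-. For both genes the mutant libraries lay above every WT library. Irf7 rose by 1.97 ± 0.25 (log2 fold change ± SE, limma adjusted p = 0.000597) and Stat2 by 1.02 ± 0.15 (adjusted p = 0.00138). Irf9, the DNA-binding partner, had 35.2, 31.3 and 34.4 FPKM in WT and 56.2 and 45.2 FPKM in the double knockout, also without overlap, and at a log2 fold change of 0.57 ± 0.15 (adjusted p = 0.0220) stayed under the fold threshold. Irf1, an interferon gamma target, had 97.1 and 190 FPKM against 111, 81.6 and 82.3 FPKM, and the groups overlapped.

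Of the 20 antiviral effectors 7 were higher and 1 was lower. Isg20, an exonuclease that degrades viral RNA, had the largest fold change of the called genes, with 15.2, 24.1 and 24.5 FPKM in WT and 85.6 and 141 FPKM in Bcor-/-Dnmt3a-/- (log2 fold change 2.35 ± 0.27, limma adjusted p = 0.000313). Rsad2, which encodes the antiviral enzyme viperin, had 6.23, 5.63 and 6.02 FPKM in WT and 21.9 and 27.1 FPKM in the double knockout (1.87 ± 0.23, adjusted p = 0.000432). Both mutant libraries lay above every WT library for these genes. Bst2, which tethers budding virus to the cell surface and whose protein is also a surface antigen of plasmacytoid dendritic cells, had 77.4, 94.1 and 72 FPKM in WT, 120 FPKM in replicate 1 and 463 FPKM in replicate 2. Replicate 2 was also the LSK library in which the 8 plasmacytoid dendritic cell markers summed to 1741 FPKM, with all 8 above every WT library and Siglech at 347 FPKM, against 151 FPKM in replicate 1 and 78.1 to 151 FPKM in WT. The part of these cells in the Bst2 level was not tested.

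For other antiviral effectors the double knockout libraries differed from each other. Oasl1 had 5.47, 5.37 and 3.84 FPKM in WT, 34.1 FPKM in replicate 1 and 4.93 FPKM, inside the WT range, in replicate 2. It was called higher (1.30 ± 0.58), with a limma adjusted p of 0.122. Oasl2, a paralog of Oasl1, had 20.4, 18 and 18.2 FPKM in WT and 16 and 5.44 FPKM in the double knockout, and it was called lower (-0.92 ± 0.33, adjusted p = 0.0659). Without replicate 2 of the double knockout its log2 fold change was -0.23 and the call was lost, as it also was without WT replicate 1. Ifit1, which binds viral RNA caps and was not called, had 3.17, 3.90 and 4.22 FPKM in WT, with replicate 1 above these at 6.78 FPKM and replicate 2 below them at 1.45 FPKM. Mx1, the GTPase whose promoter drives the Cre, had 4.03, 3.88 and 2.60 FPKM in WT and 4.07 and 9.76 FPKM in the double knockout (0.73 ± 0.38, not called).

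In the Isg15 system, Isg15 had 12.7, 11.1 and 20.4 FPKM in WT LSK against 47.3 and 62.1 FPKM in Bcor-/-Dnmt3a-/- LSK (1.85 ± 0.24, limma adjusted p = 0.000650). Usp18, the protease that removes Isg15 from proteins and restrains the receptor, had 5.13, 6.96 and 4.69 FPKM in WT and 17.7 and 7.98 FPKM in the double knockout (0.99 ± 0.33, adjusted p = 0.0540). The levels of Isg15 did not overlap between the groups, and those of Usp18 lay close to WT in replicate 2. Parp14, an ADP-ribosyltransferase, had 16.5, 14.4 and 15.2 FPKM against 38.9 and 20.3 FPKM, and Zbp1, a sensor of Z-form nucleic acid, had 8.70, 10.1 and 5.98 FPKM against 25.7 and 27.7 FPKM. Zbp1 rose by 1.61 ± 0.29 (adjusted p = 0.00319) and was the only one of the 4 RNA sensors called. Of the 6 interferon-inducible GTPases only Igtp was called, with 21.5, 21.0 and 21.3 FPKM in WT, 94.6 FPKM in replicate 1 and 22.1 FPKM in replicate 2 (1.08 ± 0.47, adjusted p = 0.120).

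**Figure D1:**
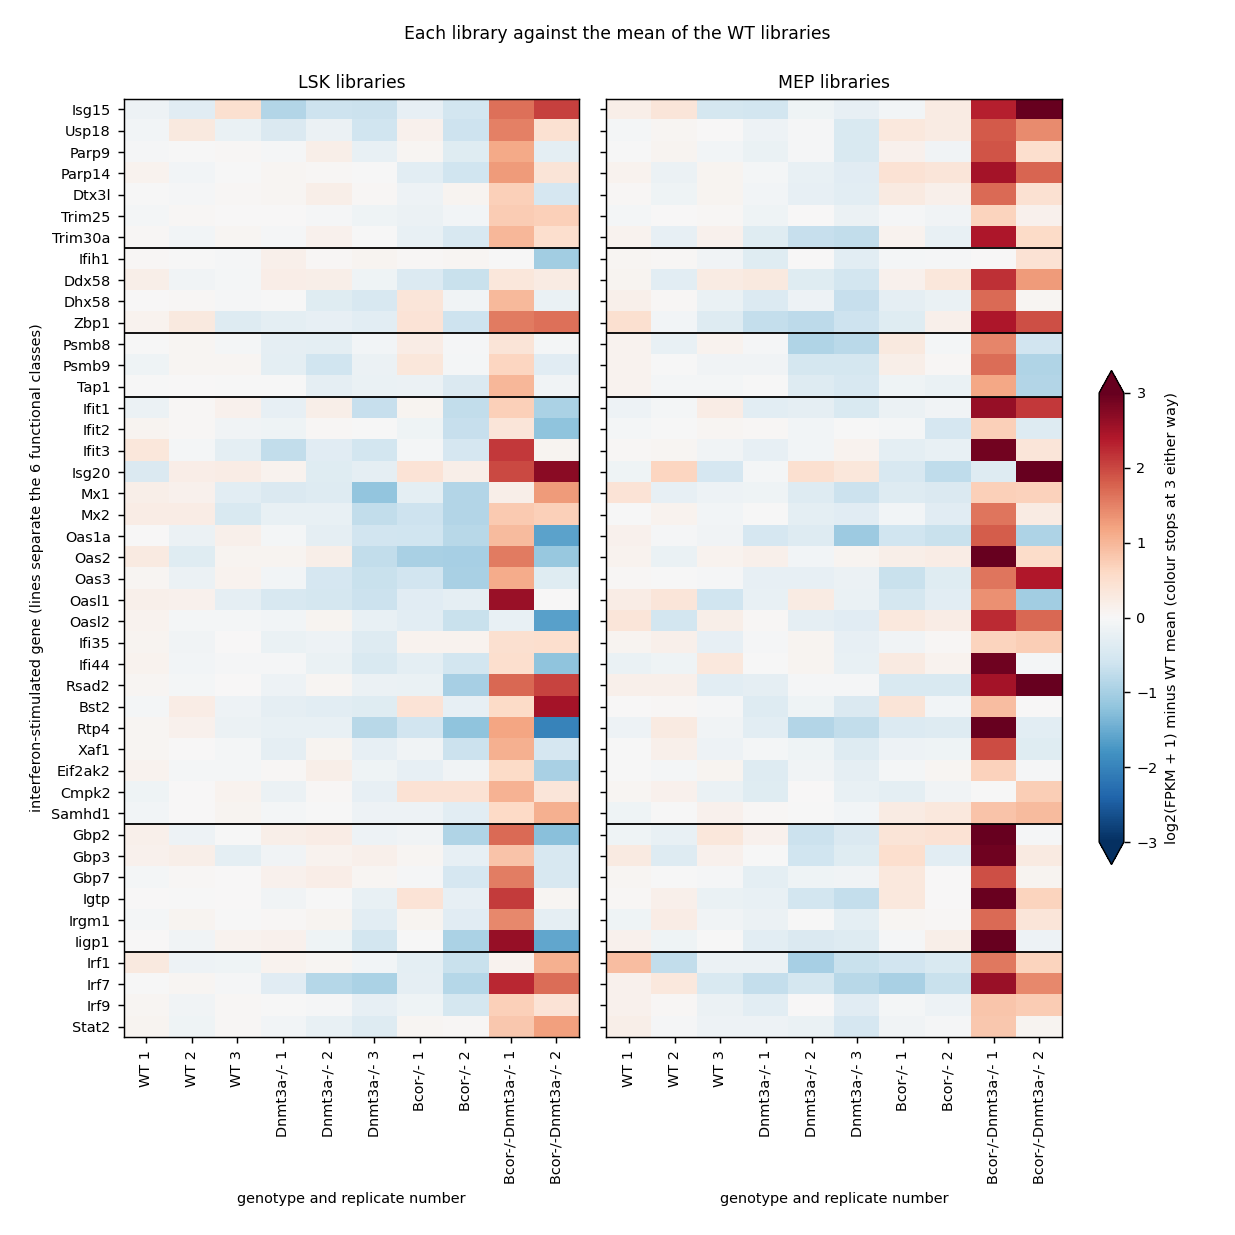
Difference of each library from the WT mean, in log2(FPKM + 1), for the 44 genes (rows, grouped by functional class) in the 10 LSK and 10 MEP libraries (columns). In LSK, 20 genes are above every WT library in Bcor-/-Dnmt3a-/- replicate 1 and below every WT library in replicate 2.

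The 2 Bcor-/-Dnmt3a-/- LSK libraries split over a large share of the genes. Both lay above every WT library for 19 of 44 genes, against 25.5% of all genes, and both lay below for 1, against 24.1% of all genes. Replicate 1 lay above and replicate 2 below every WT library for 20 of the 44 genes, where 9.40% of all genes had this order. The opposite order, with replicate 2 above and replicate 1 below, was found for none of the 44 and for 8.54% of all genes. The 20 split genes included 5 of the 6 GTPases, all 3 antigen processing genes, Ifit1, Ifit2, Oas1a, Oas2, Oas3, Rtp4 and Xaf1. Iigp1, a GTPase that disrupts parasite vacuoles and was picked out here after its values were seen, had 9.58, 8.84 and 10.3 FPKM in WT, 64.1 FPKM in replicate 1 and 2.59 FPKM in replicate 2.

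Leaving out 1 library changed the LSK result in opposite ways. Without replicate 2, 33 of the 44 genes were called higher and none lower, against 16.2% and 15.8% of all genes. Without replicate 1, 11 were called higher and 11 lower, against 20.3% and 19.2% of all genes, and the median log2 fold change was -0.02. Replicate 1 had the highest sum of the 8 monocyte and macrophage markers among the LSK libraries, at 1423 FPKM (C1qa at 360 FPKM and Csf1r at 136 FPKM). The sum was 662 FPKM in replicate 2 and 320 to 837 FPKM in WT. Of the 8 markers, 6 were above every WT library in replicate 1 and 2 in replicate 2. Replicate 1 also had 2966 FPKM of B cell markers, against 1294 FPKM in replicate 2 and 43.6 to 98.4 FPKM in WT. No marker of either list was at 0 in these 2 libraries. The part of such cells in the interferon-stimulated genes was not tested.

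**Figure D2:**
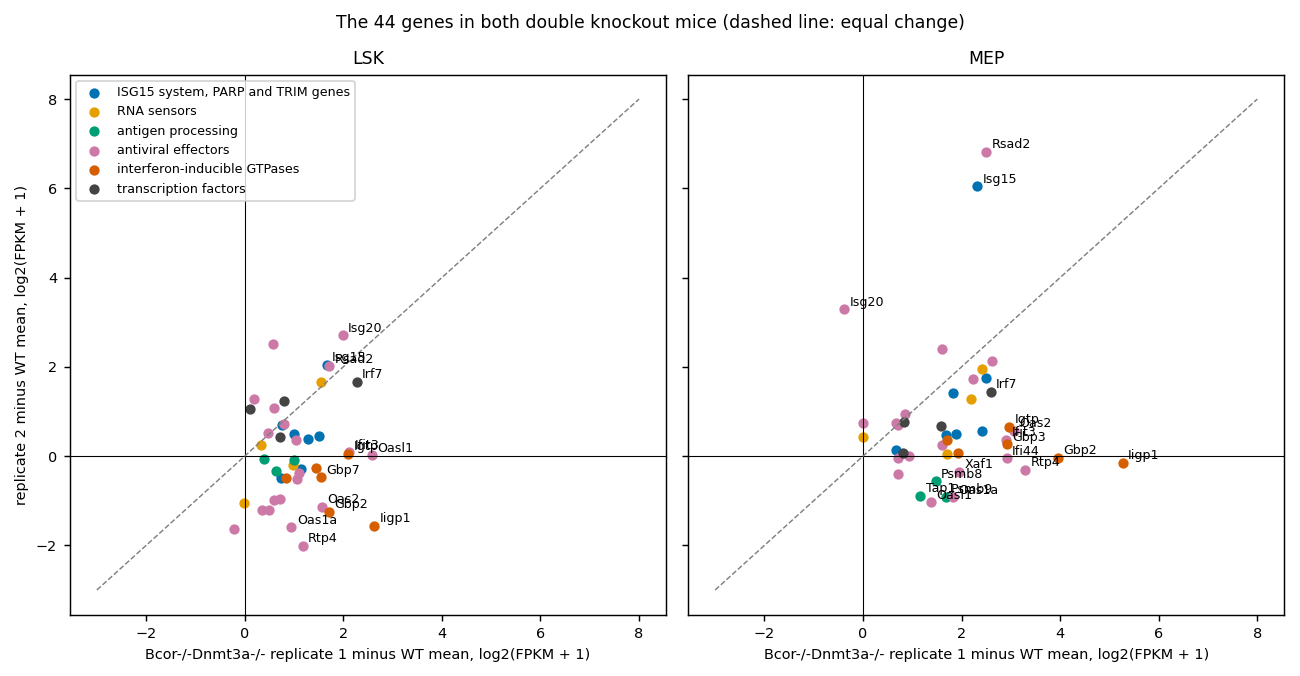
Change of each of the 44 genes from the WT mean in Bcor-/-Dnmt3a-/- replicate 1 (horizontal axis) and replicate 2 (vertical axis), both in log2(FPKM + 1), in LSK and MEP, coloured by functional class. Isg15, Rsad2, Irf7 and Isg20 are above WT in both LSK libraries, and the GTPases (dark orange) are higher in replicate 1 than in replicate 2 in both cell types.

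In Bcor-/-Dnmt3a-/- MEP, compared with WT MEP, 23 of the 42 tested genes were called higher and none lower, against 18.5% of all genes called higher and 12.4% called lower. With the adjusted p 19 stayed higher, against 14.1% of all genes called higher and 25.2% in either direction. The median log2 fold change was 1.16 over the 42 genes and 0.02 over all genes. Since 5 genes reached the minimum level only through the double knockout libraries, the count was repeated, after the data were seen, over the 37 that reached it without them: 20 were called higher, against 15.8% of all such genes, and 17 with the adjusted p, against 12%, with a median of 1.03. By class, and over these 37, 6 of 7 genes of the Isg15, Parp and Trim group, 5 of 14 antiviral effectors, 4 of 5 GTPases, 3 of 4 transcription factors, 2 of 4 RNA sensors and none of the 3 antigen processing genes were called.

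The largest differences were those of Rsad2 and Isg15, and they differed in size between the mice. Rsad2 had 2.51, 2.49 and 1.54 FPKM in WT MEP, 16.9 FPKM in Bcor-/-Dnmt3a-/- replicate 1 and 354 FPKM in replicate 2 (log2 fold change 4.66 ± 0.97, limma adjusted p = 0.00810). Isg15 had 6.37, 7.36 and 3.54 FPKM in WT and 31.7 and 430 FPKM in the double knockout (4.18 ± 0.86, adjusted p = 0.00776). Both mutant libraries lay above WT for both genes, with the higher value in replicate 2. Isg20, named here after its values were seen and not called (1.45 ± 0.87), had 86.9, 149 and 66.9 FPKM in WT, 72.8 FPKM in replicate 1 and 941 FPKM in replicate 2. In replicate 2 the erythroid markers summed to 94567 FPKM and the neutrophil markers to 15225 FPKM, against 3944 and 6759 FPKM in replicate 1 and at most 904 and 737 FPKM in WT. Hbb-b1 was listed at 0 in that library. The part of these cells in the Rsad2, Isg15 and Isg20 levels was not tested.

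For other genes both mice lay well above WT. Oas3, which makes the second messenger that activates RNase L, had 1.95, 1.83 and 1.80 FPKM in WT MEP and 7.71 and 14.1 FPKM in Bcor-/-Dnmt3a-/- MEP (2.01 ± 0.25, limma adjusted p = 0.00101). Ifit1, which reached the minimum only through the double knockout libraries and is given with no test, had 0.418, 0.522 and 0.831 FPKM in WT and 8.69 and 5.91 FPKM in the double knockout. Zbp1 had 2.55, 1.41 and 0.971 FPKM against 12.7 and 8.85 FPKM (2.18 ± 0.30). These genes were low in WT MEP and above the WT range in both mutant libraries. Oasl2 had 2.15, 0.676 and 1.78 FPKM in WT and 10.5 and 7.12 FPKM in the double knockout, and so rose in MEP (1.98 ± 0.30, adjusted p = 0.00222), whereas its lower LSK call was lost without replicate 2. Irf7 had 11.2, 12.7 and 7.12 FPKM against 65.7 and 28.9 FPKM, and it rose by 2.01 ± 0.34 (adjusted p = 0.00333), close to its change in LSK. Parp14 had 4.36, 3.37 and 4.26 FPKM in WT and 27.0 and 15.7 FPKM in the mutant (2.12 ± 0.22).

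Ddx58, the cytosolic RNA sensor RIG-I, had 3.24, 2.22 and 3.77 FPKM in WT MEP and 17.5 and 8.73 FPKM in the double knockout (1.74 ± 0.34, limma adjusted p = 0.00633). Irf9 had 28.5, 26.7 and 23.1 FPKM against 47.2 and 44.5 FPKM (0.79 ± 0.14, adjusted p = 0.00382). Stat2 had 12, 10.3 and 9.32 FPKM against 19.2 and 11.1 FPKM, overlapped with WT in replicate 2 and was not called. Igtp had 9.13, 10.05 and 7.68 FPKM in WT, 76.1 FPKM in replicate 1 and 14.6 FPKM in replicate 2 (1.81 ± 0.54, adjusted p = 0.0335). Replicate 2 was thus closer to WT for these last 2 genes. Oas2 had 0.279, 0.0387 and 0.277 FPKM in WT, 9.002 FPKM in replicate 1 and 0.759 FPKM in replicate 2. Ifit3 had 0.451, 0.470 and 0.321 FPKM in WT, 9.58 FPKM in replicate 1 and 0.819 FPKM in replicate 2. Both are among the genes that reached the minimum only with the double knockout libraries, and both were far higher in replicate 1 than in replicate 2. Mx1, below the minimum in MEP, had 1.53, 0.601 and 0.727 FPKM in WT and 2.15 and 2.09 FPKM in the double knockout.

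**Figure D3:**
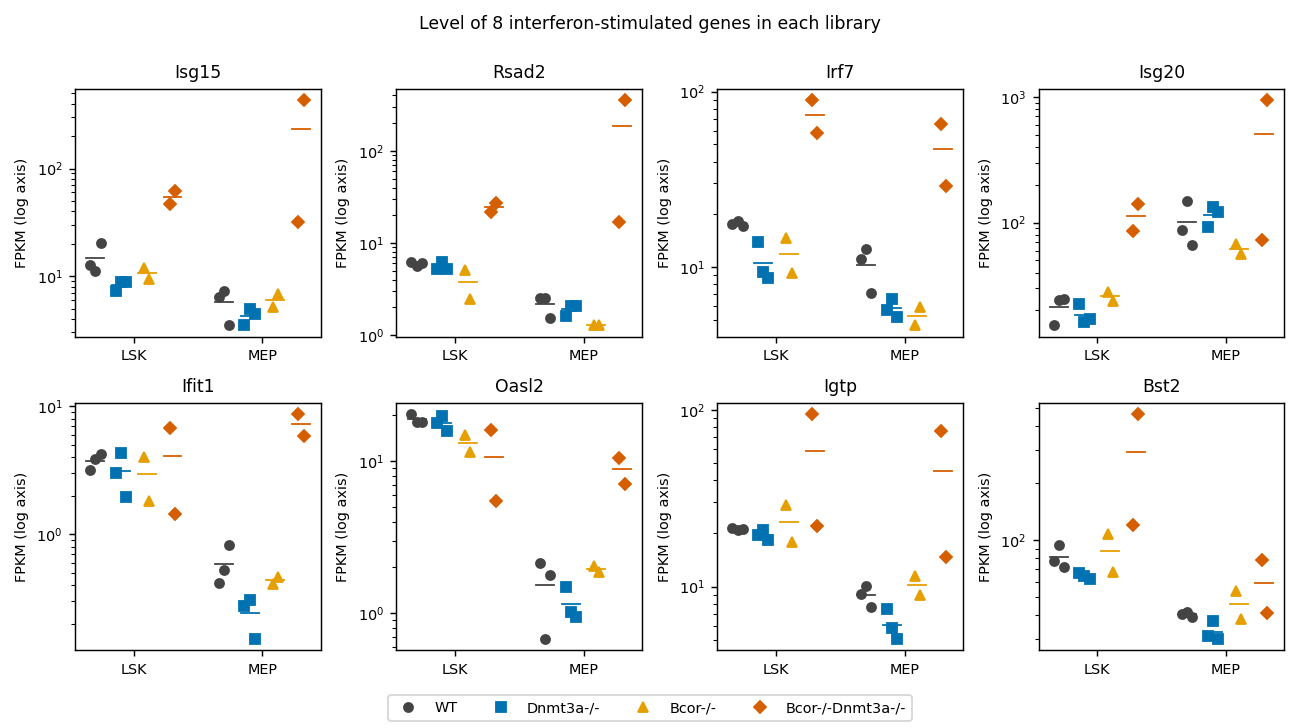
FPKM on a log axis for 8 genes in each library (points) with the mean of each genotype (lines), in LSK on the left and MEP on the right of each panel. The Bcor-/-Dnmt3a-/- points lie above all WT points in both cell types for Isg15, Rsad2, Irf7 and Igtp, whereas Oasl2 lies below WT in LSK and above WT in MEP.

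Both Bcor-/-Dnmt3a-/- MEP libraries lay above every WT library for 22 of 42 genes, against 24.6% of all genes, and both lay below for none, against 25.8%. Over the 37 genes both lay above for 19, against 22.2% of all such genes. Replicate 1 above and replicate 2 below WT was found for 9 genes, against 9.06% of all genes, and the opposite order for none, against 10%. The 9 were Psmb8, Psmb9, Tap1, Ifit2, Oas1a, Oasl1, Rtp4, Xaf1 and Iigp1. Without replicate 2, 39 of the 42 genes were called higher and none lower, against 21.3% and 14.2% of all genes. Without replicate 1, 16 were called higher and 4 lower, against 23.0% and 18.8%. Of the 37 genes, 34 were higher without replicate 2, against 18.6% of all such genes, and 15 without replicate 1, against 21.4%. In replicate 1 the median gene was 1.83 above the WT mean on the log2 scale, and 31 of 42 genes were more than 2-fold above it, against 15.8% of all genes. In replicate 2 the median gene was 0.45 above it and 11 genes were more than 2-fold above it, against 15.7%. Over the 37 genes the counts were 26 and 10, against 12.7% and 13.7%. In MEP the monocyte and macrophage markers summed to 838 FPKM in replicate 1 and to 910 FPKM in replicate 2, against 34.2 to 69 FPKM in WT, with 7 of 8 markers above every WT library in each. The B cell markers summed to 2299 FPKM in replicate 1, with 8 of 8 above every WT library. They summed to 147 FPKM in replicate 2, against 25.4 to 149.9 FPKM in WT. The plasmacytoid dendritic cell markers summed to 77.8 FPKM in replicate 1 and 124.6 FPKM in replicate 2, against 33.7 to 46.6 FPKM in WT. Of these 8 markers, 5 were above every WT library in replicate 1 and 8 in replicate 2. The part of such cells was not tested.

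The 2 double knockout mice differed in their LSK and in their MEP cells. In replicate 1, 41 of the 44 genes were above every WT library in LSK, against 40.8% of all genes, and 39 of the 42 tested in MEP, against 40.1%. In replicate 2, 20 of the 44 genes were above every WT library in LSK and 22 below, against 42.1% and 40.9% of all genes. In MEP 25 of the 42 tested were above and 9 below, against 41.8% and 41.6%. Of the 37 MEP genes, 34 were above WT in replicate 1 and 22 in replicate 2, against 37.5% and 39.9% of all such genes. The LSK share above WT in replicate 2 was thus close to that of all genes. Of the 42 genes tested in both cell types, 15 were above every WT library in both cell types of replicate 2, against 26.3% of all such genes, among them Isg15, Isg20, Rsad2, Irf7, Irf9, Usp18 and Zbp1. In the same mouse 8 of the 42 lay below every WT library in both cell types, against 24.8% of all such genes. They were Ifit2, Oas1a, Rtp4, Iigp1, Xaf1, Psmb8, Psmb9 and Tap1. Of the 37, which leave out Iigp1, 7 did, against 25.9% of all such genes. Replicate 1 was more than 2-fold above replicate 2 for 24 of the 44 genes in LSK, among them all 6 GTPases, against 8.32% of all genes. In MEP this held for 18 of the 37 genes that reached the minimum apart from the double knockout libraries, among them all 5 such GTPases, against 10.4% of all such genes. Replicate 2 was more than 2-fold above replicate 1 for 2 of the 44 in LSK and for 3 of the 37 in MEP, against 10.6% and 11.4%. With 1 mouse on each side this difference has no replicate check.

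**Figure D4:**
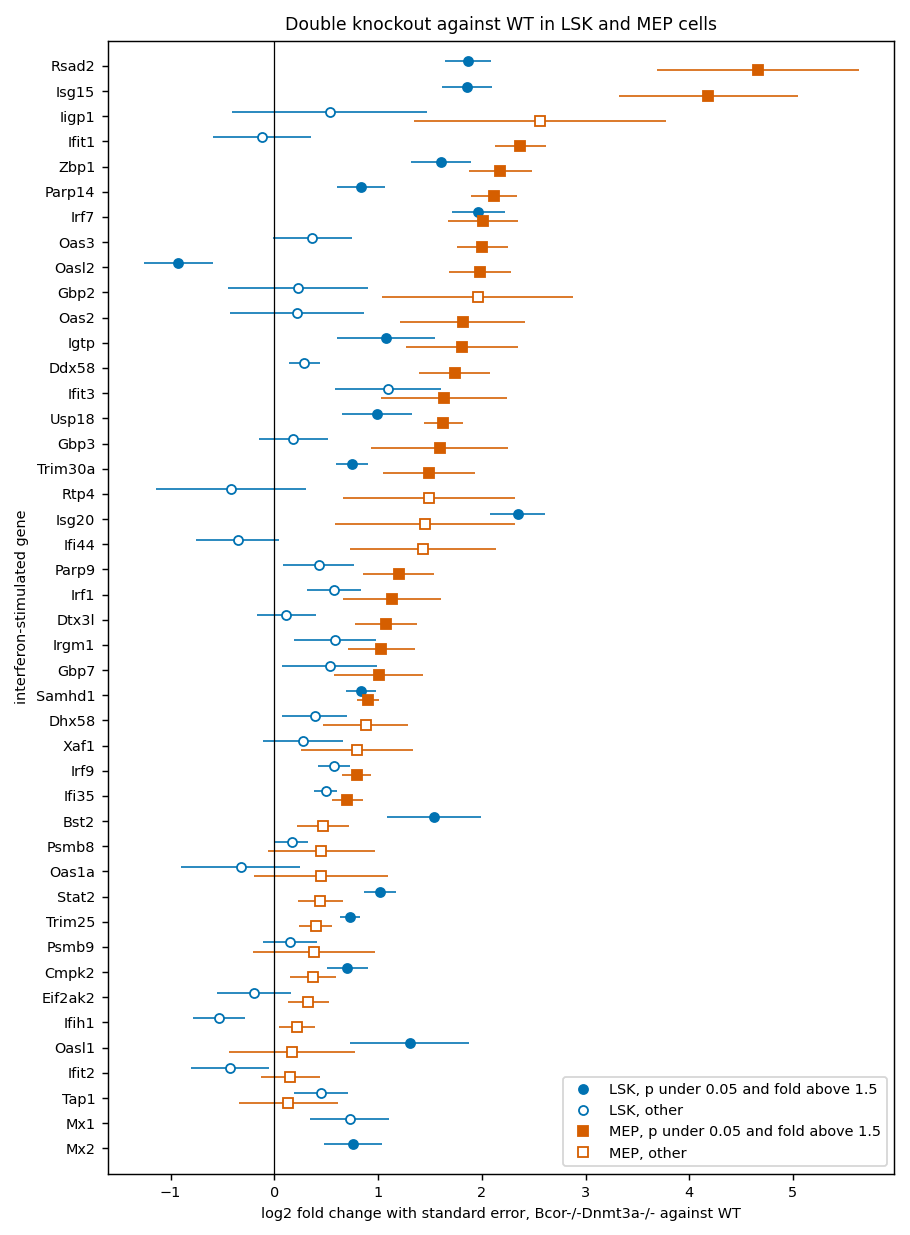
Log2 fold change with standard error between Bcor-/-Dnmt3a-/- (2 libraries) and WT (3 libraries) for each gene in LSK (circles) and MEP (squares), with filled symbols for called genes and in the order of the MEP values. Rsad2 and Isg15 have the largest MEP changes, at 4.66 and 4.18, and Oasl2 is the only gene called in opposite directions.

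The effect of the double knockout was compared between LSK and MEP on the per-mouse difference of both cell types. The effect was lower in LSK than in MEP for 18 of 42 genes and higher for 1, Oasl1, against 16.7% of all genes called lower and 11.3% called higher. With the adjusted p, 13 remained lower and 1 higher, against 10.6% and 8.02% of all genes. Over the 37 genes that reached the minimum in both cell types apart from the double knockout libraries, a count chosen after seeing the data, 14 were lower and 1 higher, against 15.8% and 11.3% of all such genes, and with the adjusted p 9 and 1, against 9.9% and 8.01%. For Oasl2 the change in LSK minus that in MEP was -2.91 ± 0.41 (log2 ± SE, limma adjusted p = 0.00510), and for Parp14 it was -1.28 ± 0.20 (adjusted p = 0.00613). Ddx58 (-1.45 ± 0.37) also had the smaller change in LSK. For Irf7 and Zbp1 no call was made. As the WT level of these genes was lower in MEP, and as a pseudocount of 1 FPKM was added, the fold changes of the lowest genes are understated.

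Loss of Bcor alone was compared with WT next. The Bcor-/- libraries had none of the 44 genes higher in LSK and 2 lower, where 7.20% of all genes were called higher and 6.03% lower. With the adjusted p of limma neither stayed, against 5.77% of all genes, and regardless of fold 4 of the 44 reached an unadjusted p under 0.05, where 25% of all genes did. Rsad2 had 5.06 and 2.49 FPKM in Bcor-/- LSK, below the 5.63 to 6.23 FPKM of WT, and fell by 0.60 on the log2 scale (limma adjusted p = 0.139). Mx2 had 1.13 and 0.775 FPKM against 2.80, 2.82 and 1.40 FPKM, and fell by 0.75 (adjusted p = 0.138). The groups did not overlap for these genes. Of the 44 genes 34 had a negative log2 fold change, with a median of -0.30, against -0.01 over all genes, of which 49.3% had a positive one. Both Bcor-/- libraries lay below every WT library for 20 of 44 genes, against 27.0% of all genes, and above for 3, against 27.1%. The lower values were more frequent in replicate 2, with 34 genes below every WT library, than in the pooled replicate 1, with 22, against 37.1% and 35.9% of all genes. Without Bcor-/- replicate 1, 5 genes were called lower, against 6.86% of all genes, and without replicate 2 none were, against 2.64%. For 5 marker lists both replicates stood outside the WT LSK range. Stem and progenitor genes summed to 766 and 477 FPKM, against 1012 to 1205 FPKM in WT, and genes of megakaryocyte-erythroid progenitors to 565 and 919 FPKM, against 187 to 245 FPKM. T and NK cell markers summed to 455 and 619 FPKM, against 215 to 241 FPKM. This was not a rise of the whole T and NK list. Cd3d (-0.30), Cd3e (-0.19), Cd3g (-0.42), Cd4 (-0.08), Cd8a (-0.02) and Gzma (-0.41) had negative log2 fold changes and were not called. Neutrophil markers summed to 16125 and 23036 FPKM, against 3269 to 12898 FPKM. Erythroid markers summed to 136 and 129 FPKM, against 35.9 to 121 FPKM. Their part in these values was not tested.

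In Bcor-/- MEP none of the 42 genes was called higher and 1, Irf7, was called lower, against 1.23% and 1.53% of all genes. Irf7 had 4.67 and 5.91 FPKM, below the 7.12 to 12.7 FPKM of WT, and fell by 0.82 (limma adjusted p = 0.857). With the adjusted p of limma 0.0640% of all genes and none of the 42 were called, and regardless of fold 2 of the 42 reached an unadjusted p under 0.05, where 5.46% of all genes did. Both libraries lay below WT for 9 genes, against 16.1% of all genes, and above WT for 6, against 14.7%. Ifit3 (below) and Oas2 (above) are among the genes that reached the minimum only with the double knockout libraries. The effect of Bcor loss was lower in LSK than in MEP for 2 of the 42 genes and higher for none, against 4.81% and 5.97% of all genes. Of these, Oas2 was below the minimum in WT and Bcor-/- MEP, and over the 37 genes Parp14 alone was lower, against 4.49% of all such genes. Parp14 did not hold with the adjusted p. In Bcor-/- MEP the erythroid markers summed to 379 and 261 FPKM, below the 384 to 904 FPKM of WT. The neutrophil lineage genes went both ways. Elane (2.54), Mpo (2.19) and Prtn3 (2.02) were called higher by their log2 fold change and S100a8 (-1.10) lower, none with the adjusted p. S100a9 (-0.98), Camp (-0.51), Ngp (-0.33) and Ltf (-0.25) were negative and not called. The neutrophil list summed to 758 and 433 FPKM, overlapping the 310 to 737 FPKM of WT. The part of such cells was not tested.

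The Dnmt3a-/- libraries, from mice in which the study describes the deletion as partial, gave few calls against WT, and those among the interferon-stimulated genes were all towards lower values. In LSK 2 of the 44 genes, Isg15 and Irf7, were called lower and none higher, where 0.234% and 0.209% of all genes were called. Isg15 had 7.25, 8.85 and 8.80 FPKM in Dnmt3a-/- LSK against 12.7, 11.1 and 20.4 FPKM in WT, and fell by 0.72. Irf7 had 13.9, 9.33 and 8.62 FPKM against 17.6, 18.4 and 17.1 FPKM, and fell by 0.71. The mutant and WT libraries did not overlap for either gene. In MEP 2 of the 42 genes, Irf7 and Zbp1, were called lower, where 0.210% of all genes were lower and 0.201% higher. Irf7 had 5.71, 6.63 and 5.204 FPKM in Dnmt3a-/- MEP and fell by 0.70. Zbp1 had 0.558, 0.489 and 0.678 FPKM and fell by 0.70, both without overlap with WT. Leaving out 1 library took the MEP log2 fold change as far as -0.54 for Irf7 and -0.47 for Zbp1. It took that of Isg15 in LSK as far as -0.48. These 3 values are under the fold threshold, and the calls were lost there. None of the 4 calls passed the Benjamini-Hochberg adjustment of limma (adjusted p = 1 for each), nor did any other gene in either cell type. An unadjusted p under 0.05 was reached by 156 genes in LSK and 225 in MEP (3 and 2 of the interferon-stimulated genes). The fit shares the spread of all 4 genotypes, and the Bcor-/-Dnmt3a-/- replicates differed the most (correlation 0.849 in LSK and 0.815 in MEP). This limits what missing calls show for either single knockout. With only the 2 genotypes compared, Dnmt3a-/- MEP and both Bcor-/- cell types had more calls, as given at the end.

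The direction was nevertheless the same over most of the list. In LSK 34 of the 44 genes had a negative log2 fold change (median -0.16), and in MEP 40 of 42 (median -0.22). Over all genes the median was 0.00 and -0.01, and 51.1% and 47.6% had a positive log2 fold change. The 42 MEP genes include the 5 that reached the minimum only with the Bcor-/-Dnmt3a-/- libraries. Without those libraries these 5 averaged 0.253 to 0.422 FPKM, so that their signs rest on very low values. All Dnmt3a-/- libraries lay below every WT library for 11 genes in LSK, against 4.98% of all genes, and for 12 in MEP (the low Ifit1 and Iigp1 among them), against 5.27%. They lay above every WT library for 3 genes in LSK, against 4.63%, and for none in MEP, against 5.12%. Replicate 3 carried the most of these low values, with 34 of 44 genes below every WT library in LSK and 31 of 42 in MEP, against 22% and 24.1% of all genes. The counts in replicates 1 and 2 were 19 and 18 in LSK, against 25.3% and 27.8% of all genes, and 22 and 23 in MEP, against 25.2% and 24.5%. Irf7 and Rtp4, the latter named after its values were seen, lay below every WT library in every Dnmt3a-/- and every Bcor-/- library of both cell types, an order found for 0.0278% of all genes tested in both. The WT libraries are shared by all these comparisons. Marker lists moved as well. In Dnmt3a-/- LSK the monocyte and macrophage markers summed to 256.1 to 319.7 FPKM, just below the 320.5 to 836.9 FPKM of WT. The T and NK cell markers summed to 155 to 202 FPKM, against 215 to 241 FPKM in WT. The neutrophil genes Camp and Ngp and the myeloid gene Lyz2 were called lower there, with log2 fold changes of -1.99, -1.49 and -0.65 (limma adjusted p = 1 for each). The other listed neutrophil genes were not called: Elane (-0.14), Mpo (-0.14), Prtn3 (-0.24), S100a8 (-1.09), S100a9 (-1.19) and Ltf (-1.26). The neutrophil list summed to 2411 to 3538 FPKM, overlapping the 3269 to 12898 FPKM of WT. The B cell gene Pax5 was called higher (0.74), also not with the adjusted p. In Dnmt3a-/- MEP no list had all libraries on one side of WT, and of the markers Elane alone was called, as higher (2.25). The part of such cells in the interferon-stimulated genes was not tested.

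Set against Bcor-/- instead of WT, 21 of 44 genes were higher in Bcor-/-Dnmt3a-/- LSK and none lower, against 15.8% and 14.8% of all genes. In MEP 22 of 42 were higher and none lower, against 16.5% and 11.3%, and of the 37 genes that reached the minimum apart from the double knockout libraries 19 were, against 14% of all such genes. Irf7 had the largest LSK difference, at 2.53 ± 0.28 (limma adjusted p = 0.000426), followed by Rsad2 at 2.46 ± 0.25 and Isg15 at 2.25 ± 0.26. All 4 transcription factors were higher in LSK, including Irf1 (1.05 ± 0.29) and Irf9 (0.90 ± 0.17), and none of the GTPases was. In MEP Rsad2 (5.13 ± 1.06) and Isg15 (4.10 ± 0.94) led. Leaving out Bcor-/-Dnmt3a-/- replicate 2 raised the counts to 36 and 38, against 17.1% and 20.7% of all genes. Leaving out replicate 1 left 16 genes higher and 9 lower in LSK, against 21.1% and 21.0% of all genes, and 16 higher with 2 lower in MEP, against 22.1% and 17.5%. Of the 37 MEP genes, 33 were higher without replicate 2 and 15 without replicate 1, against 18.1% and 20.6% of all such genes.

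The rest of the pathway was read from a list of 41 genes. Of the 32 tested in LSK, 11 rose and 1 fell in Bcor-/-Dnmt3a-/- against WT, beside 15.0% and 13.3% of all genes. Of the 29 tested in MEP, 18 rose and 1 fell, beside 18.5% and 12.4% of all genes. Among those that reached the minimum apart from the double knockout libraries, 9 of 30 rose in LSK and 16 of 27 in MEP, beside 13.1% and 15.8% of all such genes. Among the ligands, Ifna1, Ifna2, Ifna4 and Ifnb1 were listed at 0 in every library. Ifng had at most 0.841 FPKM in WT LSK, 2.13 FPKM in Bcor-/-Dnmt3a-/- replicate 1 and 32.9 FPKM in replicate 2. In MEP it had at most 0.968 FPKM in WT, 1.55 FPKM in replicate 1 and 13.9 FPKM in replicate 2. Ifng was higher in replicate 2 than in replicate 1 in both cell types, and its part in the levels of the interferon-stimulated genes was not tested. T and NK cell markers summed to 123 and 366 FPKM in the 2 LSK libraries and to 114 and 222 FPKM in the MEP libraries, against 215 to 241 FPKM and 37.4 to 69.8 FPKM in WT, with 7 of 8 markers above WT in each LSK library, and their part in Ifng was not tested.

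Among the receptors, Ifnar1 had 18.4, 18 and 18.1 FPKM in WT LSK against 31.1 and 36.7 FPKM in the double knockout (0.86 ± 0.11, limma adjusted p = 0.000550). In MEP it had 8.10, 7.53 and 7.82 FPKM in WT and 25.2 and 19.6 FPKM in the double knockout (1.40 ± 0.13, adjusted p = 0.000458). Both replicates were above WT in both cell types. Ifnar2 was called in MEP only, with 30.3, 32.5 and 33.3 FPKM against 41.1 and 64.0 FPKM (0.66 ± 0.17), and in LSK its log2 fold change was 0.11 ± 0.17. Of the interferon gamma receptor, Ifngr2 had 10.3, 9.20 and 7.03 FPKM in WT MEP and 40.0 and 24.4 FPKM in the double knockout (1.73 ± 0.22, adjusted p = 0.00116), and it was also higher in LSK (1.02 ± 0.29). Ifngr1 moved the other way in MEP, with 130, 135 and 136 FPKM in WT and 89.7 and 82.9 FPKM in the double knockout (-0.63 ± 0.08, limma adjusted p = 0.00137), and was not called in LSK (0.41 ± 0.18). Irf3, the constitutive factor that starts interferon production, was not called in either cell type (0.25 ± 0.10 in LSK and -0.03 ± 0.19 in MEP).

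Of the other Irf genes, Irf4, a factor of lymphoid cells, had 1.95, 5.04 and 2.25 FPKM in WT LSK against 29.6 and 131 FPKM in the double knockout, and Irf8, which is also on the plasmacytoid dendritic cell list, had 33.8 to 62.0 FPKM in WT, 50.8 FPKM in replicate 1 and 380 FPKM in replicate 2. Irf5 had 17.3 to 21.0 FPKM in WT LSK against 63.2 and 69.7 FPKM in the double knockout. Both libraries had B cell markers above WT, as given above, and the plasmacytoid dendritic cell list stood above WT in replicate 2 but at 151 FPKM in replicate 1, the level of the highest WT library. The part of such cells in these Irf levels was not tested. Socs3, a feedback inhibitor of cytokine receptors, had 1.63 to 3.33 FPKM in WT MEP and 13.0 and 37.3 FPKM in the double knockout (2.71 ± 0.43). Ly6a, which encodes the Sca1 protein used in the sort and is itself induced by interferon, had 66.0, 70.7 and 59.8 FPKM in WT LSK against 63.5 and 220 FPKM in the double knockout, with overlap. In MEP, sorted as Sca1-, it had at most 0.790 FPKM in WT, 17.8 FPKM in replicate 1 and 1.87 FPKM in replicate 2.

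A further list held 49 interferon-induced genes that are not among the 44. In Bcor-/-Dnmt3a-/- LSK 15 of 48 tested genes were higher and none lower, where 15.0% of all genes were higher, and in MEP 22 of 44 were higher and none lower, where 18.5% of all genes were higher. Among those that reached the minimum apart from the double knockout libraries, 15 of 46 were higher in LSK and 19 of 40 in MEP, where 13.1% and 15.8% of all such genes were. Gbp9, a guanylate-binding protein, had 1.32 to 1.896 FPKM in WT LSK against 8.30 and 14.8 FPKM in the double knockout. Gbp4 had 0.843 to 1.74 FPKM in WT and 7.97 and 21.6 FPKM in the double knockout. Unlike Gbp2, which had 23.9 to 29.6 FPKM in WT LSK, 88.9 FPKM in replicate 1 and 10.6 FPKM in replicate 2, these were high in both mice. Gbp2, Gbp4 and Gbp9 were chosen after their values were seen. In Bcor-/- LSK 6 of the 48 were lower and none higher, against 6.03% and 7.20% of all genes, and in Dnmt3a-/- LSK 1 was lower, against 0.234%.

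**Figure D5:**
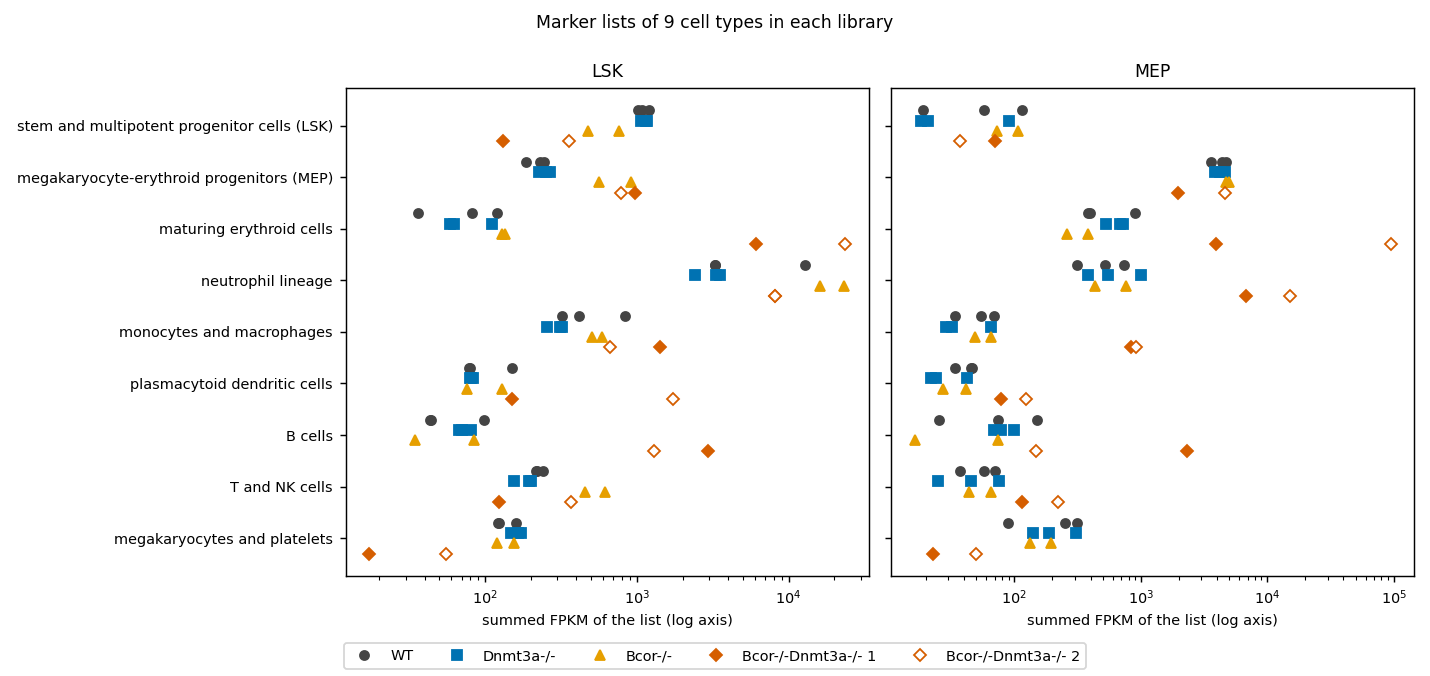
Summed FPKM on a log axis of marker lists of 9 cell types (rows) in each LSK and MEP library, with open diamonds for Bcor-/-Dnmt3a-/- replicate 2. The erythroid list is above every WT library in both double knockout libraries of both cell types, and the plasmacytoid dendritic cell list reaches 1741 FPKM in LSK replicate 2.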

How the data were processed

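PolyA RNA of sorted LSK and MEP cells was sequenced, with 10 libraries per cell type. The authors deposited FPKM values per gene, 1 table per cell type, and the submitters' processing notes name STAR 2.5.1b, SAMtools 1.9, Cufflinks 2.2.1 and build mm9. The tables were normalized separately and hold no read counts, so that depth is known only in relative terms, from the smallest steps of low values (0.790 to 1.32 in LSK and 1 to 1.60 in MEP). Genes averaging 1 FPKM or more across a cell type's 10 libraries were kept, log2(FPKM + 1) was fitted for all 4 genotypes of a cell type with limma 3.58.1 (R 4.3.3, moderated test with mean-variance trend, two-sided), and a gene was called where the fold exceeded 1.5 and the unadjusted p was under 0.05, the study's thresholds. Adjusted p-values are Benjamini-Hochberg values over all genes tested. Fold changes are on the log2(FPKM + 1) scale, which understates those of low genes. The LSK and MEP effects were compared on each mouse's LSK minus MEP difference. The script was tested on simulated data. The members and lists were chosen with earlier results of these data known. Named genes were, per cell type, up to 12 members called against WT in order of their log2 fold change, with Mx1, Irf7, Irf9, Stat2, Isg15 and Ifit1 always included, the pathway genes Ifnar1, Ifnar2, Irf3 and Ly6a, and up to 8 others that were called. A further pathway gene of this rule is not reported here. Irf1 was added to complete its class, and other additions are marked. The alternatives were another pseudocount, filter, normalization, fold, sample set, variance model and replicate block, and leaving out each library. By the labels, replicates were separate animals.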

Additional observations from a re-analysis of the deposited data

Results flagged for a closer look

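The change in Bcor-/-Dnmt3a-/- against WT differed between LSK and MEP, by the limma test on each mouse's LSK minus MEP difference with adjusted p under 0.05, for 14 of the 42 interferon-stimulated genes tested in both, against 18.6% of all genes. The LSK change minus the MEP change was -2.91 for Oasl2, -2.49 for Ifit1, -2.03 for Iigp1, -1.90 for Rtp4 and -1.79 for Ifi44 on the log2 scale. It was -1.73 for Gbp2, -1.60 for Oas2, -1.45 for Ddx58 and -1.28 for Parp14. Smaller differences were found for Dtx3l (-0.96), Oas1a (-0.77), Parp9 (-0.77) and Igtp (-0.73). Oasl1 alone had the larger change in LSK (1.13). Of the 14, Ifit1, Iigp1, Ifi44 and Oas2 reached the minimum level in MEP only through the Bcor-/-Dnmt3a-/- libraries, so that their differences are given as values and not as support. Without such genes, 10 of 37 passed the adjusted p, against 17.9% of all such genes, of which 9 had the smaller change in LSK. The 2 tables were normalized separately, and the groups of 2 and 3 libraries were too small for a test of single libraries that stand apart.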

How the results depend on the processing

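Counts below are interferon-stimulated genes called. In LSK Bcor-/-Dnmt3a-/- against WT (17) the count was 9 at a fold above 2. In LSK Bcor-/- (2) it was 1 with a mean of at least 5 FPKM, 5 with only the 2 genotypes compared, 6 with variance weights, and 0 with the adjusted p or a fold above 2. In LSK Dnmt3a-/- (2) it was 0 with the adjusted p or a fold above 2. In MEP Bcor-/- (1) it was 2 with a pseudocount of 0.1 FPKM, only 2 genotypes or variance weights, and 0 without a filter, with quantile normalization, the adjusted p or a fold above 2. In MEP Dnmt3a-/- (2) it was 1 without a filter, with a mean of at least 5 FPKM or without the trend, 5 with only 2 genotypes or variance weights, and 0 with quantile normalization, the adjusted p or a fold above 2. In MEP Bcor-/-Dnmt3a-/- against Bcor-/- (22) it was 14 with only 2 genotypes. For the LSK minus MEP difference it was 12 with a mean of at least 5 FPKM for the double knockout (19), and for Bcor-/- (2) it was 1 with that filter or a fold above 2, 4 with quantile normalization, 5 without the trend, 6 with variance weights and 0 with the adjusted p. The causes were not tested.

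With the replicate number as a block, LSK Bcor-/- had 4 calls and MEP Dnmt3a-/- had 1, and the other counts stayed within 1.5 times. Without the block by mouse, the LSK minus MEP difference had 9 calls for the double knockout and 1 for Bcor-/-. Same-numbered libraries of different genotypes deviated together (r over 0.1) in 0 of 13 pairs in LSK and 8 of 13 in MEP, and libraries with different numbers in 2 of 24 and 3 of 24. As not every pair was over 0.1, the numbers were not treated as pairing the samples in the main fits. In groups of 2 libraries the deviations mirror each other, so these pairs are not independent. The counts therefore do not settle whether same-numbered MEP libraries belong together.

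Leaving out 1 library gave 15 to 33 calls in LSK and 18 to 39 in MEP for Bcor-/-Dnmt3a-/- against WT, with the highest counts without replicate 2 of the double knockout. Against Bcor-/- it gave 14 to 36 in LSK and 14 to 38 in MEP. It gave 0 to 6 for LSK Bcor-/-, 2 to 3 for LSK Dnmt3a-/-, 0 to 2 for MEP Bcor-/-, 0 to 5 for MEP Dnmt3a-/-, 17 to 25 for the LSK minus MEP difference of the double knockout and 2 to 6 for that of Bcor-/-. Where 1 library was left in a group, it was assumed to vary like the other groups. Ifit1 in LSK turned from -0.12 to 0.71 without replicate 2 of the double knockout, and was -0.95 without replicate 1. Oasl2 was no longer called in LSK without WT replicate 1 (-0.87) or without replicate 2 of the double knockout (-0.23), and was -1.62 without replicate 1 of the double knockout. An alternative chosen after seeing the data counted only genes that reach the minimum apart from the double knockout libraries, and gave 17, 20 and 15 calls for LSK, MEP and their difference, 19 in MEP against Bcor-/-, and 1 for the LSK minus MEP difference of Bcor-/-. With no counts in the files, the precision of low genes could not be given.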
